A study of Drosophila melanogaster with 7 samples.

Results

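The pericentromeric ends of chromosome 2L and chromosome X of the *Drosophila* genome hold 85 protein-coding genes of the count table. These genes were chosen by position alone, as protein-coding genes other than *fog* whose 5′ end lies on 2L at base 22000000 or beyond, or on X at base 21500000 or beyond, in the dm6 genome. These are the boundaries that the study set for its pericentromeric regions. The 2L region spans 1513713 bases and holds 37 of the genes, and the X region spans 2042272 bases and holds 48, among 13821 protein-coding genes and 17699 genes in all. RNA was sequenced from embryos staged by hand at stage 5, when the zygotic genome is activated and the nuclei are being enclosed by membranes. There were 4 libraries of control embryos (Bloomington #36303) and 3 of HP1-KD embryos (Bloomington #33400). HP1-KD embryos came from mothers in which a Gal4 driver (Bloomington #7063) expressed an RNA interference hairpin against HP1a in the germ line. The depletion was partial so that embryos could reach this stage, and the embryos analysed are those that did reach it. The study also notes an inversion on 2L in its HP1-KD embryos. These mothers were mated with their siblings, and whether the control stock carried a driver is not given in the sources used here. Both groups carry a tissue label that names wild-type embryos, and the titles and genotypes were followed. Nothing in the labels states that libraries of a group came from separate collections, so p-values measure the spread between these libraries.

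Pericentromeric heterochromatin is the gene-poor, repeat-rich chromatin next to the centromere. It carries methylation of histone H3 at lysine 9, and HP1a binds this mark through its chromodomain. Protein-coding genes that reside there are known in *Drosophila* to be expressed in spite of this surrounding, and classical studies of chromosome rearrangements found that some of them, among them *light* (*lt*), lose expression when they are moved away from heterochromatin or when heterochromatin proteins are reduced. HP1a is thus known both as a silencer of genes brought into heterochromatin and as a protein that such resident genes can depend on. Much of the mRNA of a stage 5 embryo was laid down by the mother, so that the level of a gene combines maternal and zygotic transcripts. In bulk libraries fewer cells expressing a gene and less RNA per cell cannot be told apart.

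The libraries held between 8678092 and 16983585.5 counts, of which ribosomal RNA took 15.3 to 47.2% in control and 37.3 to 80.7% in HP1-KD libraries, so 3 counts correspond to 1.86 to 3.02 normalized counts in control and 3.97 to 6.67 in HP1-KD libraries. *Su(var)2-5*, the gene of HP1a, was at 38.5% of its control level (log2 fold change −1.38, SE 0.15, adjusted p = 0.00231 in edgeR's quasi-likelihood test). Markers of stage 5 zygotic transcription summed to 2324 to 2497 CPM (counts scaled to library size) in control and 1358 to 2033 in HP1-KD libraries, mostly from *slam* (1612 to 1763 and 871 to 1399), and none of these 14 genes passed the threshold. All of them but *sc* and *nullo* had a negative log2 fold change, and the smallest adjusted p was 0.0515, for *Kr* (edgeR's quasi-likelihood test). Control replicate 3 stood apart, with r of 0.917 to 0.961 with the other controls, which correlated at 0.980 to 0.989 among themselves. Its maternal markers summed to 262 CPM against 482 to 633 in the other controls, and its markers of later tissues to 73.9 against 7.92 to 20.1, nearly all of it *elav*. Markers of ovarian follicle cells summed to 202 CPM in HP1-KD replicate 1 and 3.03 in replicate 2, almost all of it the yolk protein genes *Yp1* and *Yp2*, and to 0.144 or less in every other library. The part of these differences in the results was not tested. Several results that move with one of these libraries are given with and without it, and others as a range over the fits that left out a library.

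On 2L, 23 of the 37 genes passed the filter on low counts and were tested, and on X 29 of the 48. 3 of the 23 genes of 2L were lower in HP1-KD embryos at an adjusted p under 0.05 and none was higher. None of the 29 genes of X passed in either direction, where the smallest adjusted p was 0.0863. Over all 8008 tested genes 8.59% were called, 4.9% lower and 3.7% higher. Among the 7427 tested protein-coding genes 6.95% were called, 246 genes lower and 270 higher. The share called on 2L was 13%, which comes to 3 genes. At an unadjusted p under 0.05, 6 genes of 2L were lower and none higher, and on X 7 were higher and 1 lower, or 26.1% and 27.6% of the tested genes against 28.8% over all genes.

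The directions differed between the chromosomes. On 2L the median log2 fold change was −0.17, with quartiles of −0.35 and 0.00, and 17 of 23 genes (73.9%) had a negative value. On X the median was 0.15, with quartiles of −0.07 and 0.46, and 10 of 29 genes (34.5%) had a negative value. The median of X lay 0.32 above that of 2L. This difference ranged from 0.19 to 0.48 over the 20 alternatives computed for it, above 0 in each of them. The alternatives reuse the same 7 libraries and do not measure the spread between them. In control replicate 3 the median log2 deviation from the control means was −0.262 for 2L and −0.012 for X. In HP1-KD replicate 1 it was 0.007 and 0.174, a narrower gap, so the groups overlapped in this difference. In the other controls X lay below 2L. The median log2 fold change over all tested genes was −0.03 and over tested protein-coding genes −0.01. All HP1-KD libraries lay below all control libraries for 5 genes of 2L (21.7%) and 2 of X (6.9%), against 15.1% of all genes and 12.9% of protein-coding genes. All HP1-KD libraries lay above all control libraries for no gene of 2L and 7 of X (24.1%), against 15.3% of all genes and 15.8% of protein-coding genes. These 7 include *CG17159* and *CG17162*, which share exons. The 29 tested genes of X and the 10 negative values also include *stnA* and *stnB*, which had identical counts. The genes of such a pair are not separate observations. Both are kept in the counts, shares and medians of the X members wherever they were tested. Without control replicate 3, the median was −0.29 on 2L and 0.19 on X. In that fit 6 of 22 tested genes of 2L and 2 of 29 of X passed, against 1212 of 7683 tested genes in all.

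**Figure D1:**
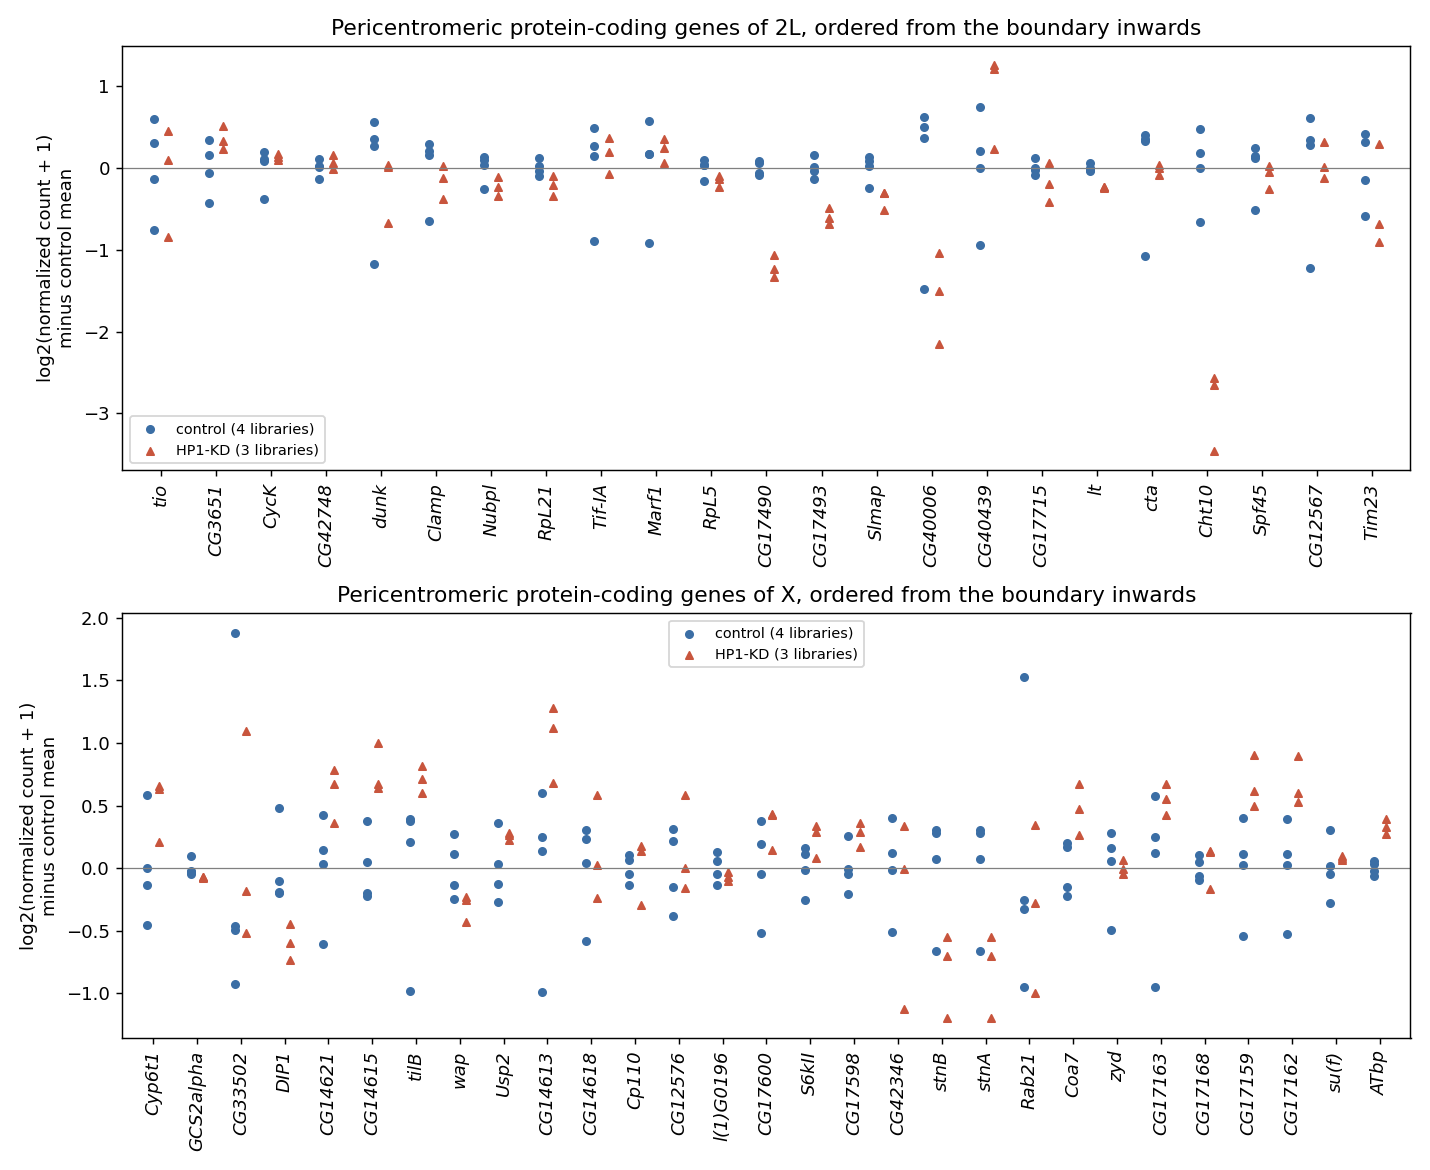
Tested pericentromeric genes of 2L (23 genes, top) and X (29 genes, bottom), ordered along the horizontal axis from the boundary inwards; the vertical axis gives each library's log2(normalized count + 1) minus the mean of the 4 control libraries. Circles are the 4 control and triangles the 3 HP1-KD libraries; HP1-KD libraries lie below every control for 5 genes of 2L and above every control for 7 genes of X.

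A difference in the same direction separated the rest of the chromosomes. The 1242 tested protein-coding genes on the rest of X had a median of 0.14, and the X members lay 0.02 above it. In the rest of X, 21.2% of genes had all HP1-KD libraries above all controls, near the 24.1% of the X members. The 1315 genes on the rest of 2L had a median of −0.03, and the 2L members lay 0.14 below it. The rest of X lay 0.17 above the rest of 2L. Pericentromeric genes of the other arms had lower medians than either set, at −0.50 for 55 genes of 2R, −0.65 for 22 genes of 3L and −0.36 for 5 genes of 3R. Of these, 25 genes of 2R (45.5%), 13 of 3L (59.1%) and 2 of 3R (40%) passed the threshold, all but 2 genes of 2R in the lower direction. These medians and counts are descriptions, and no test of one set of genes against another was made.

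**Figure D2:**
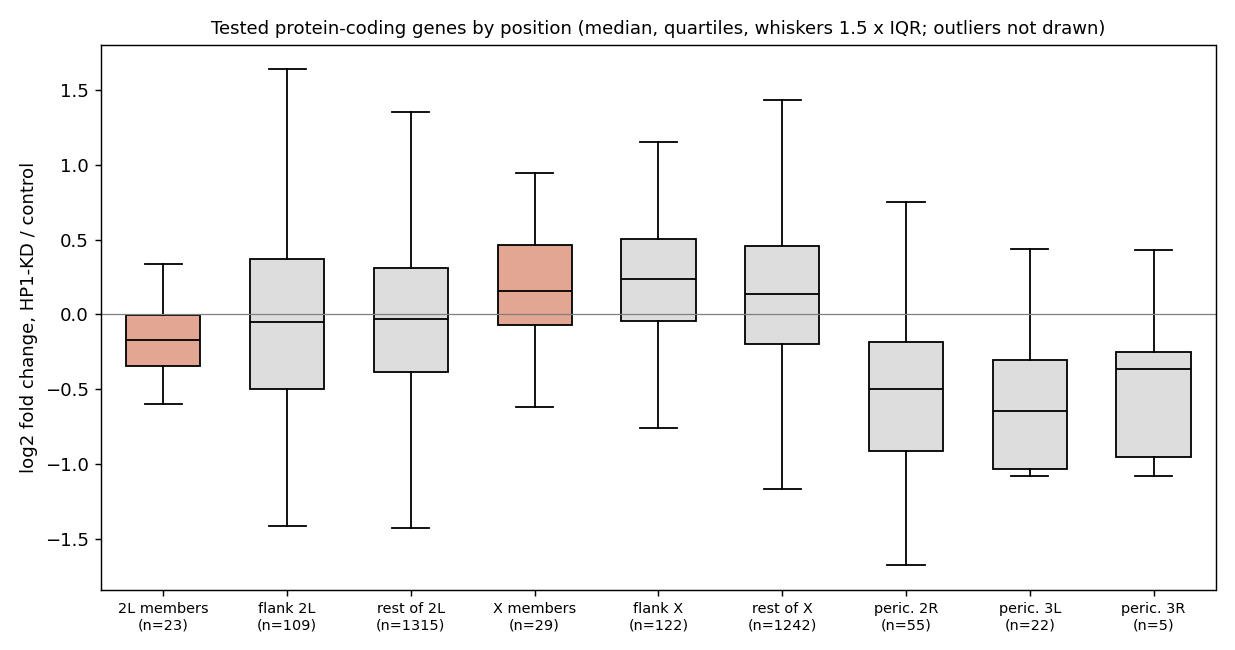
Log2 fold change (HP1-KD over control) of tested protein-coding genes by position, with the median as a line, the quartiles as a box and whiskers to 1.5 times the interquartile range; values beyond the whiskers are not drawn. The 2L members (median −0.17) lie below the rest of 2L (−0.03), the X members (0.15) lie beside the rest of X (0.14), and the pericentromeric genes of 2R and 3L lie lowest (−0.50 and −0.65).

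*CG17490* (FBgn0040009) lies on 2L from 22537668 to 22540597 on the plus strand. Its normalized counts were 1000, 914, 902 and 1012 in the control libraries and 457, 380 and 404 in the HP1-KD libraries. The groups did not overlap, and the highest HP1-KD library was near the middle of the distance from 0 to the lowest control. The level fell to 43.2% of control, from 957 ± 57.2 (SD, n = 4) to 414 ± 39.3 (SD, n = 3), a log2 fold change of −1.21 (SE 0.12, adjusted p = 0.00142 in edgeR's quasi-likelihood test). It passed without any 1 of the 7 libraries, at −1.27 to −1.14. Its exons overlap those of *lncRNA:CR46268* on the same strand, and reads of these genes cannot be told apart by strand.

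*Cht10* (FBgn0250907), which encodes a chitinase, an enzyme that breaks down the chitin of the cuticle, lies on 2L from 22999574 to 23025915 on the minus strand. It was a weakly expressed gene, with 83.5, 52.5, 95 and 116 normalized counts in the control libraries and 6.67, 13.2 and 12.4 in the HP1-KD libraries. Every HP1-KD library was far below the lowest control, and the HP1-KD values rest on 3, 10 and 6 counts. The log2 fold change was −2.96 (SE 0.40, adjusted p = 0.00588), a fall to 12.4% of control, and it ranged from −3.16 to −2.72 when a library was left out, past the threshold each time. With a filter of at least 10 counts in every library the gene was not tested.

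*CG17493* (FBgn0040010), a gene of a centrin-like calcium-binding protein, lies on 2L from 22550064 to 22556295 on the plus strand, next to *CG17490*. Its normalized counts were 1388, 1484, 1695 and 1538 in control and 1081, 996 and 945 in HP1-KD libraries, without overlap. The level fell to 66.0% of control (log2 fold change −0.60, SE 0.11, adjusted p = 0.0185). This call was the least stable of the 3 on 2L, since it passed in 3 of the 7 fits that left out a library, at −0.64 to −0.55, and its adjusted p was 0.0521 without HP1-KD replicate 1.

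*CG40006* and *Slmap* of 2L missed the threshold. *CG40006*, a gene of the CD36 family of scavenger receptors that contains an intron of 36881 bases, had 506, 465, 117 and 424 normalized counts in control and 160, 73.5 and 116 in HP1-KD libraries. Control replicate 3 was within the range of the HP1-KD libraries, and the other controls were all well above it. Its log2 fold change was −1.71 (SE 0.51, adjusted p = 0.0782), and −2.03 with an adjusted p of 0.00189 when control replicate 3 was left out. *Slmap*, a component of the STRIPAK phosphatase complex, had 4655, 4471, 3689 and 4830 normalized counts in control and 3539, 3538 and 3075 in HP1-KD libraries. These groups did not overlap, and the log2 fold change was −0.38 (SE 0.12, adjusted p = 0.0894).

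**Figure D3:**
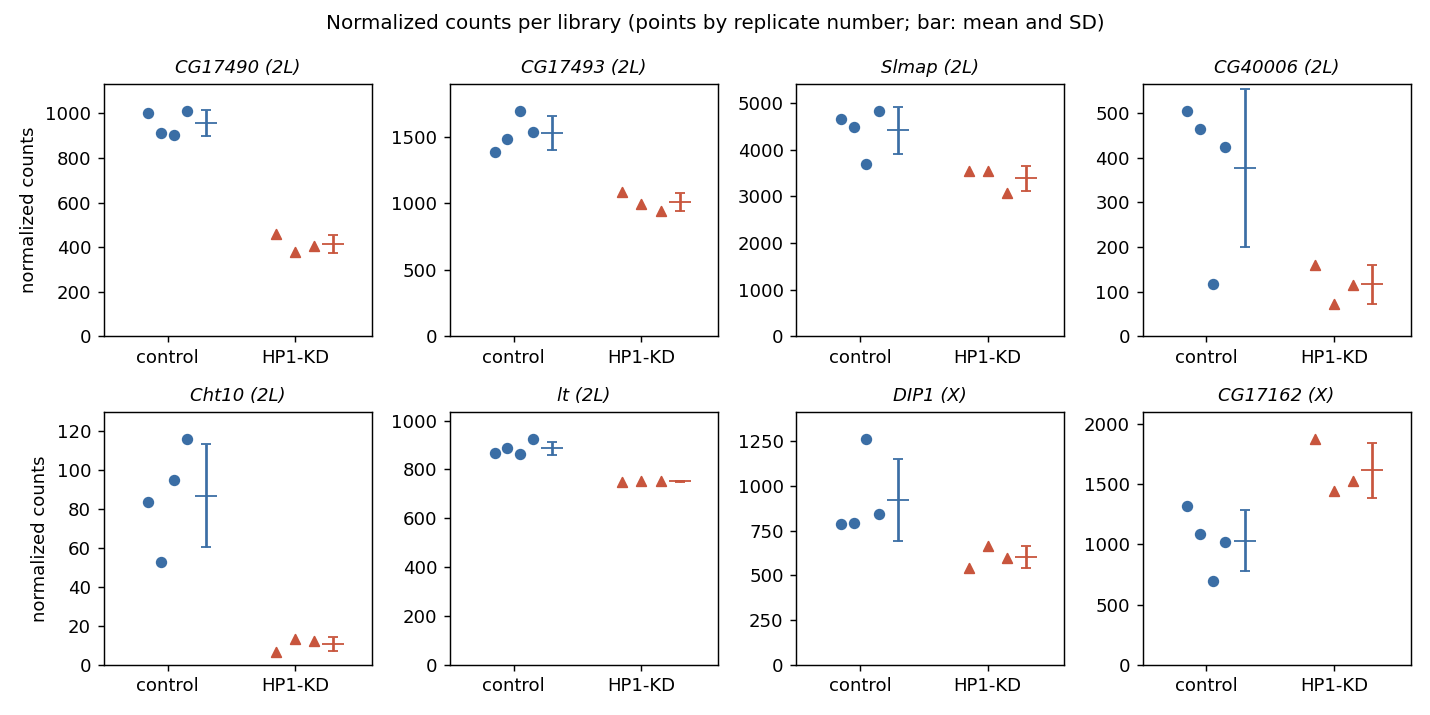
Normalized counts of 8 genes in each library, in the order of their replicate numbers, with the group mean and SD; each vertical axis starts at 0. *CG17490*, *CG17493*, *Slmap*, *Cht10* and *lt* of 2L and *DIP1* of X have every HP1-KD library below every control, *CG17162* of X has every HP1-KD library above, and *CG40006* overlaps through the control library at 117.

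The genes known for a dependence on their heterochromatic location, *lt*, *cta* and *su(f)*, did not pass the threshold, which 8.59% of all tested genes did. *lt*, which encodes Vps41 of the HOPS complex for delivery to lysosomes and pigment granules, lies on 2L from 22924795 to 22943135 and had 867, 888, 864 and 925 normalized counts in control and 749, 754 and 752 in HP1-KD libraries. All HP1-KD libraries were below all controls. Its log2 fold change was −0.24 (SE 0.09, adjusted p = 0.139), or 84.9% of control. *cta* (*concertina*), the maternal G protein alpha subunit of gastrulation, lies on 2L from 22981816 to 22992951 and had 1474, 1517, 548 and 1443 normalized counts in control and 1177, 1147 and 1090 in HP1-KD libraries. Control replicate 3 was the lowest of the 7 libraries and the other controls were the highest. The log2 fold change was −0.13 (SE 0.32, adjusted p = 0.805), and −0.38 with an adjusted p of 0.0226 without control replicate 3. *su(f)*, the CstF-77 subunit of the mRNA 3′ end cleavage machinery, lies on X from 23096771 to 23101431 and had 412, 336, 502 and 393 normalized counts in control and 426, 435 and 429 in HP1-KD libraries. The HP1-KD libraries lay inside the range of the controls, and the log2 fold change was 0.07 (SE 0.15, adjusted p = 0.785).

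The list named for RNA processing and translation held 5 tested genes, *RpL5*, *RpL21*, *Spf45* and *Tif-IA* of 2L and *su(f)* of X. None passed, against 8.59% of all tested genes, and their median log2 fold change was −0.12, from −0.21 to 0.09. *RpL5*, of the large ribosomal subunit, had 14000, 16630, 16030 and 15940 normalized counts in control and 14580, 14250 and 13280 in HP1-KD libraries, and its log2 fold change was −0.16 (SE 0.12). *RpL21*, of the same subunit, had 9668, 11320, 10570 and 10080 normalized counts in control and 9687, 9021 and 8220 in HP1-KD libraries, at −0.21 (SE 0.11). For each of these ribosomal protein genes the HP1-KD libraries overlapped the lowest control. The splicing factor gene *Spf45* was at −0.12 (SE 0.19). *Tif-IA*, listed here as an initiation factor although it acts in transcription by RNA polymerase I, was at 0.09 (SE 0.30), and at −0.14 without control replicate 3.

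Other named genes of 2L also missed the threshold. *dunk*, whose protein keeps myosin at the cell cortex during the cellularization of this stage, had 4966, 4280, 1488 and 4054 normalized counts in control and 3381, 3447 and 2109 in HP1-KD libraries, and control replicate 3 was again the lowest of all. The log2 fold change of *dunk* was −0.31 (SE 0.38), and −0.58 to −0.12 over the fits that left out a library. *Clamp*, a protein that binds GA repeats and recruits the dosage compensation complex to the X chromosome, was at −0.20 (SE 0.23). *Marf1*, a regulator of mRNAs in the oocyte, was at 0.13 (SE 0.30), and at −0.1 without control replicate 3. *CycK*, the cyclin partner of Cdk12, was at 0.12 (SE 0.15). *Tim23*, of the mitochondrial import machinery, was at −0.40 (SE 0.37) and *Nubpl*, known in human as an assembly factor of respiratory complex I, at −0.23 (SE 0.14). The largest positive value on 2L was that of *CG40439*, at 0.95 (SE 0.52, adjusted p = 0.263), from 3.09 to 12.2 normalized counts in control and 8.27 to 17.8 in HP1-KD libraries, groups that overlapped.

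Control replicate 3 had the lowest control value for 15 of the 23 tested 2L genes and the highest for 1, while on X it was the lowest for 11 of 29 and the highest for 11. The median deviation of the 2L genes from their control means, on the log2 scale, was −0.262 in control replicate 3 and 0.116 to 0.151 in the other controls. In the HP1-KD libraries it was 0.007, −0.132 and −0.236. For the X genes the same deviation was −0.012 in control replicate 3, 0.002 to 0.124 in the other controls and 0.132 to 0.265 in the HP1-KD libraries. The HP1-KD libraries were thus above the controls on X, and on 2L they lay between control replicate 3 and the other controls. As a share of all protein-coding counts, the 2L genes took 0.712 to 0.957% in control and 0.743 to 0.815% in HP1-KD libraries, which overlap, and the X genes took 0.26 to 0.269% in control and 0.274 to 0.291% in HP1-KD libraries, which do not. The rest of X showed the same separation, so it is not particular to the X members. Its share was 14.5 to 15.6% in control and 16.5 to 16.8% in HP1-KD libraries. Its median deviations were −0.032 to 0.072 in control and 0.143 to 0.184 in HP1-KD libraries.

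The genes of X with every HP1-KD library above every control were *CG14615*, *tilB*, *CG14613*, *Coa7*, *CG17159*, *CG17162* and *ATbp*, and none passed the threshold. *CG17162* (X, 23084960 to 23096735, minus strand) had 1320, 1088, 698 and 1024 normalized counts in control and 1878, 1449 and 1529 in HP1-KD libraries. Its lowest HP1-KD library was above its highest control, and the log2 fold change was 0.65 (SE 0.21, adjusted p = 0.0901). *CG17159* lies inside it on the same strand and shares its exons, and its values, 0.65 (SE 0.21, adjusted p = 0.0972), cannot be taken as a separate observation. Without control replicate 1 both passed, with *CG17162* at 0.49 to 0.79 over the fits that left out a library. *Coa7*, known in human for the assembly of cytochrome c oxidase, had 231, 304, 310 and 243 normalized counts in control and 376, 324 and 431 in HP1-KD libraries, a log2 fold change of 0.46 (SE 0.17, adjusted p = 0.12).

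The other genes of this kind on X were of low or moderate level. *CG14613* had the largest positive value on X, with 198, 155, 65.0 and 143 normalized counts in control and 285, 209 and 316 in HP1-KD libraries, a log2 fold change of 0.95 (SE 0.35, adjusted p = 0.125). *CG14615* had 21.6 to 33.2 normalized counts in control and 40 to 51.7 in HP1-KD libraries, at 0.78 (SE 0.28, adjusted p = 0.116). *tilB*, needed to assemble the dynein arms of motile cilia, had 7.92 to 22.1 normalized counts in control and 25.8 to 30.0 in HP1-KD libraries, at 0.67 (SE 0.40, adjusted p = 0.292). *ATbp* had 150 to 162 normalized counts in control and 189 to 206 in HP1-KD libraries, at 0.34 (SE 0.14, adjusted p = 0.156), with the least spread of these genes. With library sizes scaled by total counts alone all of these values turned negative. Every other tested gene of 2L and X was then negative too, many of them as before, while the median over all tested genes moved to −1.15. Relative to that median the X genes lay 0.14 higher and the 2L genes 0.15 lower, against 0.18 higher and 0.14 lower with TMM scaling.

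*DIP1* had the smallest adjusted p on X and the opposite direction. It encodes a protein that binds double-stranded RNA, lies on X from 21624796 to 21630148 on the minus strand, and is the neighbour of the piRNA cluster *flamenco*. Its normalized counts were 790, 792, 1264 and 844 in control and 543, 665 and 596 in HP1-KD libraries. The groups did not overlap, and control replicate 3 was far above the other controls. The log2 fold change was −0.62 (SE 0.19, adjusted p = 0.0863), and it passed the threshold without control replicate 3. *stnA* and *stnB*, which encode the stoned proteins of synaptic vesicle recycling from a dicistronic transcript, had the lowest value on X, −0.95 (SE 0.44, adjusted p = 0.198), from identical counts of 8.55 to 17.6 normalized counts in control and 5.56 to 9.27 in HP1-KD libraries. They count as 1 observation, and these groups overlapped.

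None of the 3 most highly expressed genes of X passed the threshold, against 8.59% of all tested genes. *GCS2alpha*, the alpha subunit of glucosidase 2 of the endoplasmic reticulum, had 3988, 3941, 4356 and 4002 normalized counts in control and 3878, 3863 and 3882 in HP1-KD libraries. Its groups did not overlap, although the log2 fold change was −0.07 (SE 0.09, adjusted p = 0.589). *wap*, a WD40-repeat protein, had 2655, 2452, 3520 and 3149 normalized counts in control and 2447, 2489 and 2165 in HP1-KD libraries, overlapping at the lowest control, with a log2 fold change of −0.31 (SE 0.14, adjusted p = 0.194). *CG17168* had 778, 860, 795 and 893 normalized counts in control and 914, 910 and 741 in HP1-KD libraries, and its value of 0.04 (SE 0.12) changed sign in 3 of the alternatives tried.

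Counts by role are read against the 8.59% of all tested genes that were called, 4.9% lower and 3.7% higher. The 3 tested signalling genes, *cta*, the ribosomal S6 kinase *S6kII* and the inositol pyrophosphate kinase *l(1)G0196*, had log2 fold changes from −0.13 to 0.23, and none passed. 5 genes of vesicle traffic and the cytoskeleton, *lt*, *Rab21*, *dunk*, the centriolar *Cp110* and *tilB*, had values from −0.55 to 0.67, and none passed. The neuronal membrane list held *stnA* and *stnB* with the values above, while the ionotropic receptor gene *Ir40a* of 2L was not tested. Of 44 genes known by CG numbers alone, 21 were tested, and their median was 0.15. Of these 21, 2 were called lower, *CG17490* and *CG17493*, and none was called higher. That count is too small to set apart from the 4.9% called lower over all genes. No gene of the Stellate family was among the 85.

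Distance from the boundary was compared with the log2 fold change on each chromosome. On 2L the 12 tested genes nearer the boundary had a median log2 fold change of −0.15 with 7 negative, and the 11 farther genes −0.24 with 10 negative. Of the 3 called genes on 2L, *CG17490* belongs to the nearer genes and *CG17493* and *Cht10* to the farther. Spearman's rho between distance and log2 fold change was −0.30 across the 23 genes of 2L and 0.02 across the 29 of X, where the nearer 15 and farther 14 genes both had a median of 0.15. These correlations run across genes that share the same 7 libraries and are given as a description.

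**Figure D4:**
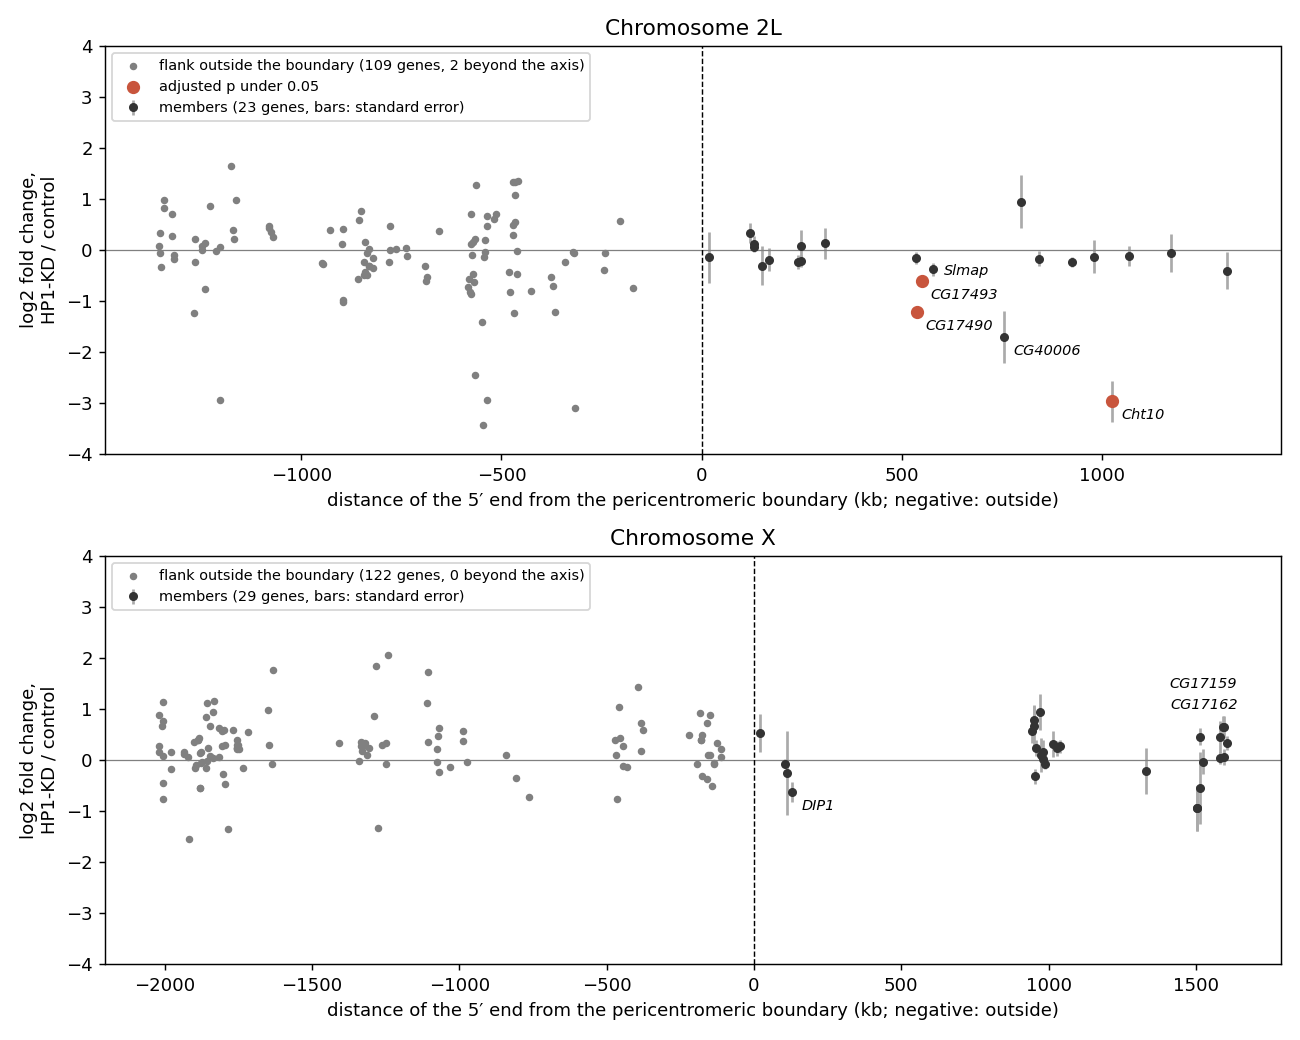
Log2 fold change (HP1-KD over control) against the distance of the 5′ end from the pericentromeric boundary in kb, with the region to the right of the dashed line and an equally long flank to the left; bars are standard errors and genes with an adjusted p under 0.1 are named. The genes of 2L spread down to −2.96 at *Cht10*, and the genes of X lie between −0.95 and 0.95.

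The tested genes nearest the boundaries were examined on both sides. Just inside 2L lay *tio*, the zinc finger paralogue of *teashirt*, at −0.15 (SE 0.50), with 16.1, 5.71, 9.28 and 13 normalized counts in control and 11.1, 5.30 and 14.5 in HP1-KD libraries. *CG3651* was next, at 0.33 (SE 0.19), with 648, 567, 378 and 487 in control and 642, 599 and 726 in HP1-KD libraries, then *CycK*, with 1145, 1065, 774 and 1080 in control and 1133, 1104 and 1076 in HP1-KD libraries. Each of these groups overlapped. The nearest tested genes outside, *tsh*, *CG31612* and *CG1416*, had log2 fold changes of −0.76, 0.57 and −0.06. On X the cytochrome P450 gene *Cyp6t1* (15.1, 8.76, 6.81 and 9.72 normalized counts in control and 15.6, 15.9 and 11.4 in HP1-KD libraries) was at 0.53 (SE 0.38), *GCS2alpha* at −0.07, and *CG33502* at −0.26 (SE 0.83). *CG33502* had 15.1, 10.7, 80.8 and 14.8 normalized counts in control and 14.5, 18.5 and 46.5 in HP1-KD libraries, so that 2 single libraries, control replicate 3 and HP1-KD replicate 3, stood far above the rest. The nearest tested genes outside the X boundary, *mst*, *Ddx56* and *slgA*, were at 0.22, 0.06 and 0.34. None of these 12 genes passed the threshold, against 8.59% of all tested genes. The 109 tested genes of a 2L flank as long as the region had a median of −0.05 and the 122 of the X flank 0.24, with 11% and 13.1% called.

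Some neighbours start close to each other, and their values were set side by side. *RpL5* and *CG17490* are divergent genes whose 5′ ends lie 784 bases apart on 2L, with log2 fold changes of −0.16 and −1.21. *CG17162* and *su(f)* are divergent genes whose 5′ ends lie 36 bases apart on X, at 0.65 and 0.07. *Rab21*, an endosomal GTPase gene, and *Coa7* start 86 bases apart on X at −0.55 (SE 0.70) and 0.46. *CG14615* and *tilB*, whose 5′ ends lie 246 bases apart, had like values of 0.78 and 0.67. These pairs were picked after their values were seen.

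Levels in control embryos, compared per kilobase of exon, were higher on 2L. The median of the tested genes was 17.2 CPM per kb on 2L and 5.36 on X, against 9.29 over all tested protein-coding genes. On 2L *RpL21* was highest at 1026 ± 70.1 (SD, n = 4), followed by *dunk* at 287.6 ± 119 and *RpL5* at 283 ± 20.7 CPM per kb, of which the latter pair did not differ beyond their spread. On X *GCS2alpha* was highest at 77.7 ± 3.66, then *wap* at 57.1 ± 9.36 and *CG17168* at 38.1 ± 2.49 CPM per kb, each apart from the next by more than its SD. The called genes ranked low to middle on 2L, with *CG17490* at 23.1 ± 1.38, *CG17493* at 17.2 ± 1.45 and *Cht10* at 0.816 ± 0.249 CPM per kb.

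**Figure D5:**
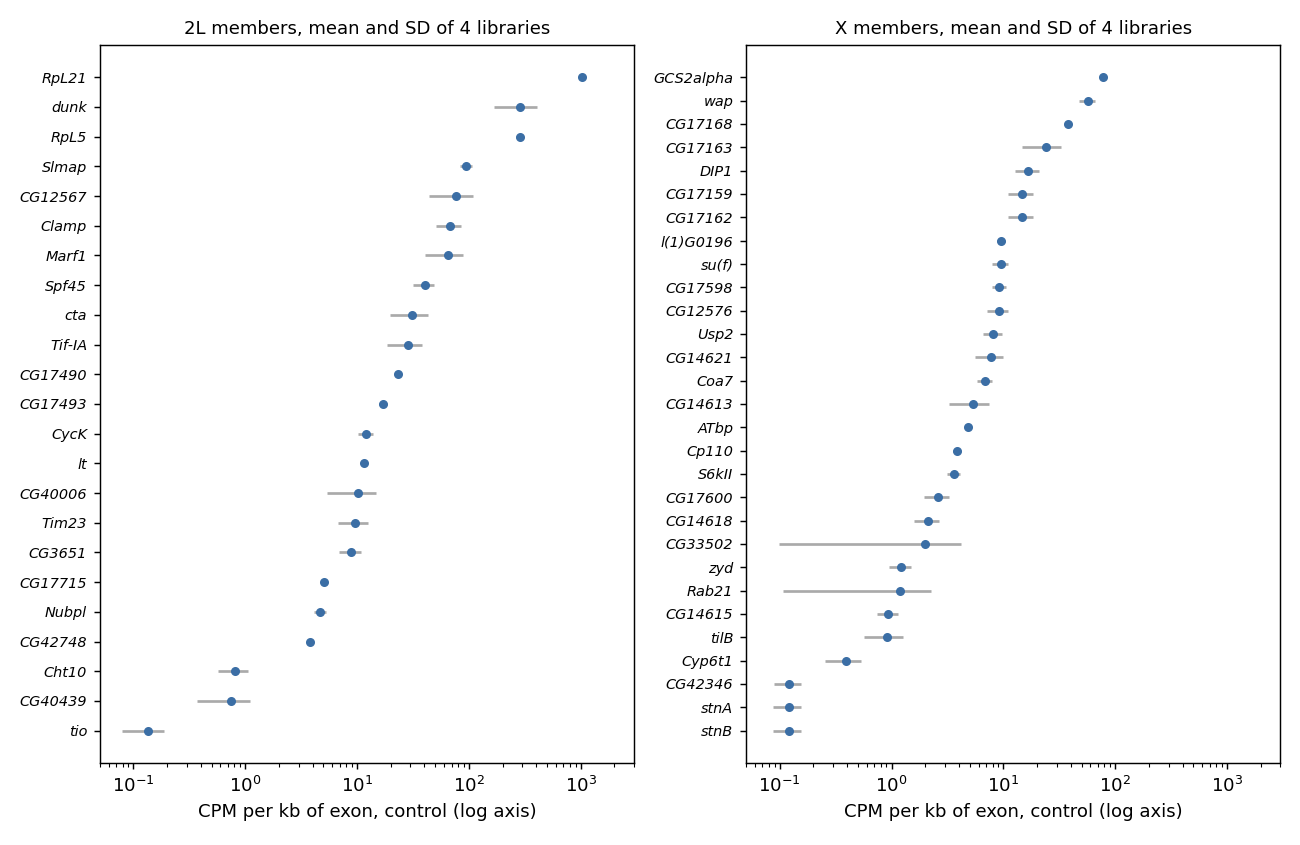
Level of each tested gene in the 4 control libraries in CPM per kb of exon on a log axis, as mean (point) and SD (bar), for 2L (left) and X (right). On 2L *RpL21* leads at 1026 and 3 genes lie above 200, while on X *GCS2alpha* leads at 77.7.

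The members were longer than other tested genes and, on X, often overlapped. The median gene length was 6527 bases on 2L and 4763 on X, against 2840 over tested protein-coding genes, and the median of the longest intron was 565 and 732 against 202 bases. Introns of at least 10000 bases occurred in 4 tested genes of 2L, *CG40006* (36881), *Marf1* (28508), *lt* (11008) and *CG12567* (10833), and in 2 of X, *CG42346* (33612) and *CG17600* (12435). None of these 6 genes passed the threshold, against 8.59% of all tested genes, a share at which so few genes can all miss it. Exons overlapped those of another gene in 17 of 29 tested genes of X (58.6%) and 6 of 23 of 2L (26.1%), against 43.3% of tested protein-coding genes. Among genes without such overlap, the median log2 fold change was −0.19 over 17 genes of 2L and 0.03 over 12 of X, so that the positive median of X moved close to 0 when overlapping genes were left out, while the rest of X stood at 0.20 under the same restriction.

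The 33 genes that did not pass the filter comprised 14 of 2L and 19 of X. *CG42597* of 2L had no count in any library, and 27 genes, this one included, stayed under 10 counts in every library. The other 6 reached 10 counts in some library, and 5 of them had their higher counts in control libraries. *Ir40a* had 1, 3, 19.5 and 10 counts in control and 0, 0.5 and 1 in HP1-KD libraries. *CG40486* had 14, 10, 10 and 8 counts in control and 1, 5 and 0 in HP1-KD libraries, *CG17167* 7, 10, 26 and 4.5 against 0.5, 2.5 and 0, *CG12061* 3, 0, 21 and 7.5 against 0, 4 and 0, and *CG34334* 2, 1.5, 16.5 and 2 against 0, 1 and 0. Control replicate 3 held the highest count of *Ir40a*, *CG17167*, *CG12061* and *CG34334*. These raw counts are not scaled for depth, which was lower for mRNA in the HP1-KD libraries, at 2866577 to 4746070 protein-coding counts against 6512477 to 10262181.5 in control. *CG32820*, by contrast, had its highest count, 10, in HP1-KD replicate 3. It lies in a stretch of X where *CG17450*, *CG32820* and *CG32819* alternate with *CG33502*, *CG32857* and *CG32500*, which may be copies of one another, as may *tplus3a* and *tplus3b* on 2L. Whether the counting split reads among them was not tested.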

How the data were processed

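Total RNA of control and HP1-KD embryos was sequenced from TruSeq Stranded libraries. The authors deposited estimated counts per gene, in steps of 0.5 and without normalization. The submitters' processing notes name STAR and dm6, and the counting program and its use of strand are not given in the sources used here. Counts were rounded to whole numbers, and genes were kept by filterByExpr and scaled with TMM in edgeR 4.0.16 (R 4.3.3). The 2 conditions were compared by a two-sided quasi-likelihood F-test (edgeR), without covariates. Benjamini-Hochberg adjusted p-values over all 8008 tested genes under 0.05 were called. A log2 fold change is HP1-KD over control, and its SE was taken from the F statistic. Normalized counts are TMM-scaled CPM, brought to the size of an average library. Floors of 3 counts cover counting error only.

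Positions, biotypes, exons and symbols came from Ensembl release 115 (dm6), where 17561 of 17699 identifiers (99.22%) were found. The members and the role lists were chosen with earlier results of these data known. Values of every library are given for genes that passed, for *lt*, *cta* and *su(f)*, for the 3 highest per kb in control and the 3 nearest inside each boundary. *Slmap*, *CG40006*, *DIP1*, *CG17162*, *Coa7* and *CG14613* were also given so, chosen after their values were seen. Members that failed the filter were named with at least 10 counts in some library, with none at all, or as possible copies of one another. Non-members with values of fold change were limited to *Su(var)2-5* and the 3 tested genes nearest outside each boundary. Other non-members were named only as markers, as neighbouring or overlapping genes, or, for *fog*, as left out. Lists of role were counted beside the share over all genes, with no test over a list. The 2 pole cell markers summed to 20.4 to 46.5 CPM in control and 38.9 to 56.1 in HP1-KD libraries. Alternatives were other scalings (total count alone, protein-coding genes, upper quartile factors, DESeq2 1.42.0 factors), filters, genes without exon overlap, unrounded values, a robust fit, the replicate block, DESeq2's Wald test, limma-voom (limma 3.58.1), other thresholds and each library left out. The fit was tested on simulated data, where 44% of 100 genes changed 2-fold and 97% of 100 genes changed 4-fold were called. The changed genes were drawn from those above a low level. A gene that missed the threshold may thus still have changed 2-fold. Promoter sequences were not analysed here.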

Additional observations from a re-analysis of the deposited data

Results flagged for a closer look

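Among 52 tested genes, 5 had 1 control library far from the other 3, measured as its gap to the nearest other control divided by the range of the 4, with Dixon's 95% critical value for 4 samples as the limit. Chance gives about 1 in 20, or 2.6 genes here, and in each of the 5 the library was control replicate 3. It was the lowest for *cta* of 2L (0.923) and the highest for *CG33502* (0.937), *DIP1* (0.886), *Rab21* (0.864) and *GCS2alpha* (0.852) of X. The median deviation of the 2L genes was also lowest in this library and far from the other controls (0.915). It held 49.5 normalized counts of *Rab21* against 8.05, 13 and 13.7 in the other controls. The log2 fold change of *Rab21* went from −0.55 to 0.33 and that of *CG33502* from −0.26 to 0.92 when control replicate 3 was left out, and neither passed the threshold in any setting.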

How the results depend on the processing

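Fold changes, their medians and the counts were computed again under 19 alternatives, as far as a gene was tested there, and with other thresholds for the counts and a higher mean count for the medians. Control levels were computed again with total counts alone. Of 952 values of single genes, 870 kept their direction and their side of the threshold, 6 kept the direction and no longer passed, 15 kept it and newly passed, and 61 changed sign, in 32 of the 52 tested genes. The count of called 2L genes, 3, became 5 at an adjusted p under 0.1, 6 with DESeq2's Wald test and 2 to 6 when a library was left out. The count of X genes, 0, became 3 at an adjusted p under 0.1, 3 with DESeq2's Wald test, 1 with total counts alone and 0 to 2 when a library was left out. The share of all genes under 0.1 was not computed here, so the counts at that threshold stand without one. Total counts alone called 1095 of 8008 tested genes. DESeq2 called *CG40006*, *Slmap* and *lt* of 2L and *CG17159*, *CG17162* and *DIP1* of X in addition, among 1488 called of 8008 tested genes. Of these, *CG17159* and *CG17162* share exons and count as 1 observation. *CG17490* passed in every alternative that tested it, and *Cht10* in all that tested it but the replicate block. Leaving out control replicate 3 gave 6 and 2 genes, among 1212 called of 7683 tested. *CG40006*, *Slmap* and *cta* of 2L and *CG17162* and *DIP1* of X were added there. Leaving out control replicate 1 added *CG17159* and *CG17162*, among 983 called of 7884 tested genes. Leaving out control replicate 4 or any HP1-KD replicate lost *CG17493*.

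Whether a control and an HP1-KD library of equal replicate number form a pair could not be decided, since so few correlations cannot settle it. Within such pairs, r between their deviations was 0.46 for replicate 1, −0.107 for replicate 2 and 0.058 for replicate 3. The value for replicate 1 was the highest of all combinations, and the next was 0.33, for HP1-KD replicate 2 with control replicate 3. With the replicate number as a block, 1 gene of 2L passed, *CG17490*, and 0 of X, among 96 called of 8008 tested genes. Log2 fold changes that changed sign with the replicate block were *CG12567* 0.17, *CG14618* −0.09, *Cp110* −0.04, *cta* 0.08 and *zyd* 0.05.

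Total counts alone moved the median of all tested genes from −0.03 to −1.15 and gave 31 genes higher and 1064 lower, against 296 and 392. The median log2 fold change was then −1.31 for 2L members, −1.01 for X members, −1.15 and −0.99 for the rest of 2L and of X, −1.17 and −0.87 for their flanks, and −1.61, −1.82 and −1.51 for the pericentromeric genes of 2R, 3L and 3R. Median control levels were 26.0 CPM per kb on 2L and 7.74 on X. The single genes that changed sign were *ATbp* −0.8, *CG12576* −1.01, *CG14613* −0.26, *CG14615* −0.35, *CG14618* −1.16, *CG14621* −0.6, *CG17159* −0.51, *CG17162* −0.5, *CG17163* −0.67, *CG17168* −1.06, *CG17598* −0.82, *CG17600* −0.74, *CG3651* −0.8, *CG40439* −0.14, *CG42748* −1.05, *Coa7* −0.76, *Cp110* −1.21, *CycK* −0.98, *Cyp6t1* −0.55, *Marf1* −1.0, *S6kII* −0.94, *Tif-IA* −1.08, *Usp2* −0.83, *su(f)* −1.04 and *tilB* −0.49. Total counts include ribosomal RNA, at 15.3 to 47.2% of control and 37.3 to 80.7% of HP1-KD libraries.

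Without a filter the medians were −0.82 for 3L, −0.11 for the rest of 2L and 0.05 for the rest of X, and with upper quartile factors the rest of 2L was at −0.06. The median of X members was 0.23 with a mean of at least 50 counts and 0.03 without overlapping genes, where the rest of X was at 0.20, and the cause was not tested. Over the fits that left out 1 library, the median ranged over −0.29 to −0.12 for 2L members, 0.07 to 0.23 for X members and −0.76 to −0.66 for 3L. Further changes of sign were with limma-voom *CG12567* 0.1, *CG33502* 0.06, *Cp110* −0.02, *cta* 0.01 and *zyd* 0.05, with at least 10 counts in every library *CG17168* −0.0003 and *Cp110* −0.02, with upper quartile factors *Cp110* −0.01, and without a filter *Cp110* −0.004. Values that changed sign as libraries were left out ranged over *CG12567* −0.34 to 0.12, *CG12576* −0.1 to 0.31, *CG14618* −0.17 to 0.28, *CG17168* −0.002 to 0.13, *CG33502* −0.9 to 0.92, *CG42346* −0.5 to 0.19, *Cp110* −0.05 to 0.16, *Marf1* −0.1 to 0.33, *Rab21* −0.98 to 0.33, *Tif-IA* −0.14 to 0.25, *su(f)* −0.03 to 0.17, *tio* −0.48 to 0.22 and *zyd* −0.18 to 0.07. Genes of low counts limit the precision, with standard errors up to 0.83 on X and 0.52 on 2L.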
